A study of Mus musculus with 12 samples.

Results

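The 37 collagen genes described here are those outside the main fibril-forming chains: the chains of basement membranes, of beaded filaments and anchoring fibrils, the transmembrane collagens, the FACITs (collagens that sit on the surface of fibrils), the short-chain network collagens and a few rare fibrillar chains. They were taken by symbol from the deposited table, which lists 44 collagen chain genes among 23359 genes, and belong to 24 collagen types. Their messenger RNA was measured in pieces of skin of C3H/HeJ mice, with 3 libraries in each of 4 groups. Treated skin carries the label of CD36highCD90+ treatment and a time point of 20 weeks; the series describes fibrosis with or without transplanted fibroblasts of that kind. The other groups are 20-week fibrotic skin, 6-week fibrotic skin, and normal skin, which has no labelled time point. How the fibrosis was induced, the age of the mice and whether replicate libraries are from different animals are not stated, so p-values describe the spread between these samples, which may be technical.

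Collagen chains assemble in threes into triple helices. Type IV collagen forms the sheet of basement membranes, where the chains of Col4a1 and Col4a2 are the common form and those of Col4a3 to Col4a6 are used in fewer tissues. In skin the transmembrane collagen XVII of basal keratinocytes and the anchoring fibrils of collagen VII tie the epidermis to the dermis, and the loss of either causes blistering. Collagen VI forms beaded filaments around dermal cells, and collagens XII and XIV bind to the surface of collagen I fibrils.

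Values are FPKM, fragment numbers scaled to transcript length and library size, so levels can be compared between genes. From 12658 to 13364 genes per library reached 1 FPKM, and the 13761 tested genes had library medians of 9.63 to 10.3 FPKM. The treated libraries varied most: on the log2(FPKM + 1) scale the median SD of a tested member was 0.60 in treated skin, 0.26 in fibrotic skin at 20 weeks, 0.25 at 6 weeks and 0.23 in normal skin. Treated replicate 1 stood apart from replicates 2 and 3. Its summed FPKM of 6 blood endothelium markers was 54.9, against 149 and 196 in treated replicates 2 and 3, and its 5 adipocyte markers summed to 143, against 373 and 834. The epidermal and dermal origin of the tissue showed in every library: 5 basal keratinocyte markers summed to between 3432 and 8885 FPKM and 6 fibroblast markers to between 156 and 853 FPKM. The 5 cartilage markers found in the table summed to 1.45 FPKM at most, and of the defining ones Acan reached 0.188, Matn3 0.0673 and Matn1 0.102 FPKM. In bulk tissue, fewer cells of a type and less RNA per cell cannot be told apart.

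The members spanned a wide range of levels in normal skin. Col17a1, the gene of the hemidesmosome collagen XVII, averaged 413 ± 71.5 FPKM (SD, n = 3), and the next highest, Col6a1, averaged 27.7 ± 7.67 FPKM. Col17a1 alone made up 63.5% to 76.2% of the summed FPKM of all 37 members in normal libraries. Of the 37 members, 21 had at least 1 FPKM in at least 3 libraries and were tested, and 15 stayed under 1 FPKM in every library. Col13a1 passed through the 6-week libraries and treated replicate 3, and Col8a2 and Col20a1 each through the normal libraries and treated replicates 2 and 3, so that a difference was built into the passing of these 3 members, which the counts below include.

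Against normal skin, 11 of the 21 tested members were called at 6 weeks, 6 higher and 5 lower, or 52.4%, while 39.3% of all tested genes were called (17.6% higher and 21.7% lower). At 20 weeks 9 were called, 3 higher and 6 lower, or 42.9% beside 33.5% of all tested genes (15.3% higher and 18.2% lower). Treated against normal skin gave 6 calls, 3 higher and 3 lower, or 28.6% beside 20.7% of all tested genes (7.57% higher and 13.2% lower). Treated against fibrotic skin of 20 weeks gave 3 calls, 2 higher and 1 lower, or 14.3% beside 15.3% of all tested genes (4.45% higher and 10.9% lower), a share near the background. All 3 changed at least 2-fold, as 3.93% of all tested genes did. The median log2 fold change of the tested members against normal skin was 0.35 at 6 weeks and -0.08 at 20 weeks, where the medians of all tested genes were -0.05 and -0.04. At 6 weeks 16 of the 21 members did not overlap with normal skin, beside 58.1% of all tested genes, and 9 were called with at least a 2-fold change, beside 11.5%. At 20 weeks 10 did not overlap, beside 54.6%, and 5 were called with at least a 2-fold change, beside 9.53%. In treated against normal skin 7 did not overlap, beside 37.5%, and 4 were called with at least a 2-fold change, beside 3.70%. The 3 comparisons with normal skin share its libraries. The balance of directions moved with the scaling. After removal of keratin, hair, cornified, muscle and short RNA genes and rescaling to equal totals, 3 members were higher and 6 lower at 6 weeks, 1 higher and 7 lower at 20 weeks, and 1 higher and 2 lower in treated against normal skin. That rescaling moved the median of all genes to -0.34 at 6 weeks, to -0.31 at 20 weeks and to 0.25 in treated against fibrotic skin. When libraries were scaled by their median of ratios, 3 members were higher and 2 lower in treated against normal skin.

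**Figure D1:**
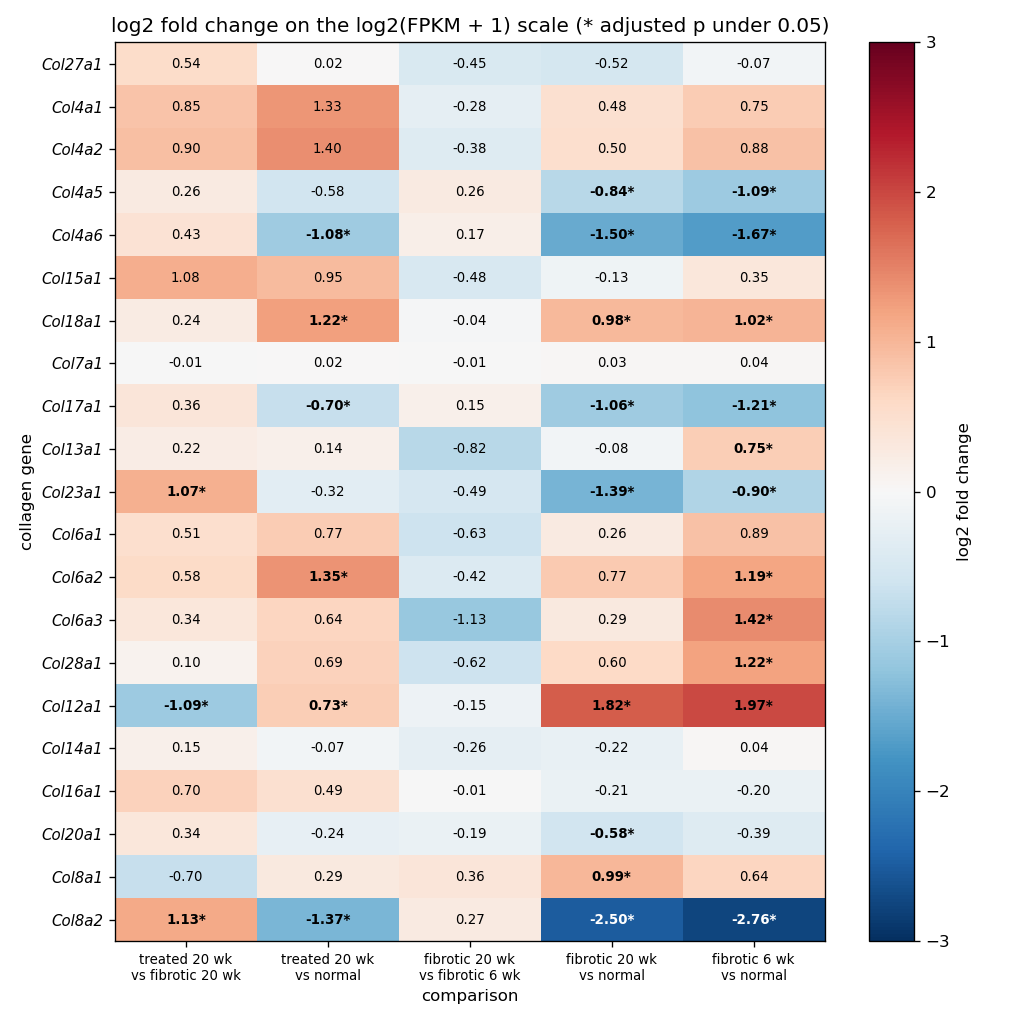
Log2 fold change of the 21 tested members (rows) in 5 comparisons (columns), on the log2(FPKM + 1) scale, with an asterisk at an adjusted p under 0.05. Col12a1 had the highest values of fibrotic against normal skin (1.97 at 6 weeks and 1.82 at 20 weeks), and Col8a2, whose difference was built into its passing the filter, had -2.76 and -2.50.

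Sequence just upstream of the gene is shown for 3 pairs of related members that the results below set side by side: the X-linked type IV chains Col4a6 and Col4a5, the anchor genes Col17a1 and Col7a1, and the collagen VIII chains Col8a2 and Col8a1. Each stretch comes from the 250 bases before a RefSeq start on GRCm38.p6, the assembly that mm10 denotes, and is given 5′ to 3′ on the strand of the gene. Bases inside the RefSeq gene span or inside a GENCODE vM21 exon were trimmed off, which left 198 to 250 bases. The stretches are chrX:141474096-141474326 (minus strand) for Col4a6, chrX:141475169-141475369 (plus strand) for Col4a5, chr19:47692095-47692292 (minus strand) for Col17a1, chr9:108953336-108953585 (plus strand) for Col7a1, chr4:126286544-126286792 (plus strand) for Col8a2 and chr16:57754738-57754987 (minus strand) for Col8a1. Capitals mark the TATA box TATAAA, the CCAAT box and the GC box GGGCGG, each read on either strand.
Col4a6: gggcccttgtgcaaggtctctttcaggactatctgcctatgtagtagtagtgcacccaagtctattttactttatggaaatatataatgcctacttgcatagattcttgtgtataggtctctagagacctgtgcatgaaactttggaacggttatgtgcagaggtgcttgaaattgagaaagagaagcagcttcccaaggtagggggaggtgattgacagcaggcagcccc
Col4a5: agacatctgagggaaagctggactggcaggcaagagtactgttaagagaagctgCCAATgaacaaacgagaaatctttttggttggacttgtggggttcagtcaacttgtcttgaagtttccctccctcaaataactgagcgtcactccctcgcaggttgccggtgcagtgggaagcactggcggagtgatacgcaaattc
Col17a1: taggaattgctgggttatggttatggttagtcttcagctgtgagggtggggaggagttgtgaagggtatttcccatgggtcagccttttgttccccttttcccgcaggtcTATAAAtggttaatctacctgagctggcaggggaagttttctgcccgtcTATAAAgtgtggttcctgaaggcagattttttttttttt
Col7a1: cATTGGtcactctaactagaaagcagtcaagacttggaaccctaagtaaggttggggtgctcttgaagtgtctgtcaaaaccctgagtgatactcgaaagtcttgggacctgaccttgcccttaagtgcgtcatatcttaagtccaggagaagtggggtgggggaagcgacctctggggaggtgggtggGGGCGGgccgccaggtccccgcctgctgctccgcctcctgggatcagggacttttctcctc
Col8a2: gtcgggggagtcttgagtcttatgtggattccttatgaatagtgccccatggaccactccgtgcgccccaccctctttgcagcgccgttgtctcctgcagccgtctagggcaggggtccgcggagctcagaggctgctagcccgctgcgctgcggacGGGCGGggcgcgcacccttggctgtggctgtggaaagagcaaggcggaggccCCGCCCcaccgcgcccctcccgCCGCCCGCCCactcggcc
Col8a1: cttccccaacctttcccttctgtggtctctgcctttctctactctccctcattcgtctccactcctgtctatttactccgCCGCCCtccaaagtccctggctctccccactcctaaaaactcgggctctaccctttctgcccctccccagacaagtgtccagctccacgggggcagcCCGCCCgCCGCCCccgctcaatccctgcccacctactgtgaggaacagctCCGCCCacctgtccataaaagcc
The GC box stood 4 times in the Col8a2 stretch, where 2 of the matches overlap each other, 4 times in the Col8a1 stretch and once in that of Col7a1. TATAAA stood 2 times in the Col17a1 stretch, and the CCAAT box once each in those of Col4a5 and Col7a1. The trimmed Col4a6 stretch held none of these motifs, and the AP-1 motif TGANTCA, searched in the same way, was in none of the 6. Before trimming, the 250-base windows of Col4a6 and Col4a5 held the GC box, and that of Col17a1 the CCAAT box. Of 32851 untrimmed RefSeq windows of 250 bases, 32.7% held the GC box, 33.8% the CCAAT box, 12.4% TATAAA and 6.75% TGANTCA. These shares are not directly comparable with the trimmed stretches. The share of G and C was 69.9% for Col8a2 and 60.8% for Col8a1, 45.5% for Col17a1 and 56.4% for Col7a1, and 45.5% for Col4a6 and 49.8% for Col4a5.

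The chains of type IV collagen differed in how they stood in fibrotic skin. Col4a5 and Col4a6, which encode the chains of the epidermal and smooth muscle form, fell in fibrotic skin at both times, while Col4a1 and Col4a2, the ubiquitous chains, had higher means that did not pass. Col4a6 stood at 1.88, 5.72 and 5.62 FPKM in treated replicates 1, 2 and 3, at 2.32, 3.69 and 2.39 in fibrotic skin at 20 weeks, at 2.54, 2.64 and 1.88 at 6 weeks, and at 8.01, 9.75 and 11.4 in normal skin. All 9 fibrotic and treated libraries lay below the 3 normal ones. Its log2 fold change against normal skin was -1.67 ± 0.30 (SE, adjusted p = 0.00249) at 6 weeks, -1.50 ± 0.30 (adjusted p = 0.00516) at 20 weeks and -1.08 ± 0.30 (adjusted p = 0.032) in treated skin. The treated call ended without normal replicate 2 (adjusted p = 0.0733) or normal replicate 3 (adjusted p = 0.116), and in the fit of the 6 compared libraries alone (0.13).

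Col4a5, its neighbour on the X chromosome with 1274 bases between the annotated genes, averaged 5.56 ± 2.30 FPKM in treated skin, 4.25 ± 0.646 in fibrotic skin at 20 weeks, 3.40 ± 0.648 at 6 weeks and 8.37 ± 1.25 in normal skin (SD, n = 3 each). The fibrotic libraries, from 2.69 to 4.68 FPKM, lay below the normal ones, from 7.16 to 9.65 FPKM. Its log2 fold change was -1.09 ± 0.25 (SE, adjusted p = 0.00771) at 6 weeks and -0.84 ± 0.25 (adjusted p = 0.0283) at 20 weeks. The call at 20 weeks ended without any 1 of the fibrotic replicates of 20 weeks or without normal replicate 2 or 3, with an adjusted p of 0.0533 to 0.0947. In treated skin the difference from normal was -0.58 (adjusted p = 0.123), with a treated library at 7.37 FPKM within the normal range.

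Col4a1 and Col4a2 lie head to head on chromosome 8 (positions 11198423 to 11312889 and 11312805 to 11449287), and their annotated spans share 85 bases. Whether the counting used strand is not given in the sources used here. Col4a1 stood at 17.2, 46.7 and 94.3 FPKM in treated replicates 1, 2 and 3, at 18.9, 27.5 and 23.8 in fibrotic skin at 20 weeks, at 35.7, 29.9 and 21.2 at 6 weeks, and at 20.7, 18.9 and 11.1 in normal skin. At 6 weeks all 3 libraries were above the normal ones, narrowly in replicate 3, but the log2 fold change of 0.75 (95% interval -0.34 to 1.85) did not pass (adjusted p = 0.245). In treated against normal skin it was 1.33 (adjusted p = 0.0798), with replicate 1 inside the normal range and replicate 3 the highest of the 12 libraries. The ratio of Col4a1 to Col4a2 within a library stayed between 1.31 and 1.54 in all 12 libraries while Col4a1 itself ran from 11.1 to 94.3 FPKM. The ratio of Col4a5 to Col4a6 was 1.13 to 1.90 in treated and fibrotic libraries and 0.729 to 0.99 in normal ones.

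As a share of the summed type IV FPKM, Col4a5 and Col4a6 together made up 6.92% to 14.1% in treated skin, 14.9% to 15.3% in fibrotic skin at 20 weeks, 9.44% to 10.8% at 6 weeks and 29.8% to 50.1% in normal skin. The summed type IV FPKM itself was 34.5 to 173 in treated skin, 38.5 to 54.8 at 20 weeks, 42.4 to 68.9 at 6 weeks and 39.3 to 51.3 in normal skin, with overlapping groups. Col4a3 and Col4a4, which share 114 bases of their annotated spans and are best known from the kidney glomerulus, stayed below 0.69 FPKM in every library. Col4a3 averaged 0.254 ± 0.135 FPKM in treated skin, 0.0954 ± 0.0313 at 20 weeks, 0.18 ± 0.0818 at 6 weeks and 0.452 ± 0.122 in normal skin (SD, n = 3 each). In a fit without the filter on low values both genes fell at 6 weeks (adjusted p = 0.0274 for Col4a3 and 0.0238 for Col4a4) and at 20 weeks (0.00958 and 0.00911). Follicle stem cell and outer root sheath markers fell beside these chains: 4 of 6 were called lower at 6 weeks and 6 of 6 at 20 weeks, and their summed FPKM was 339 to 1217 in treated skin, 168 to 402 at 20 weeks, 238 to 348 at 6 weeks and 1773 to 2301 in normal skin. Sebocyte markers fell as well, with 4 of 4 called lower at 6 weeks and 3 of 4 at 20 weeks. Of all tested genes, 21.7% were called lower at 6 weeks and 18.2% at 20 weeks. The part of these lists in the type IV values was not tested.

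**Figure D2:**
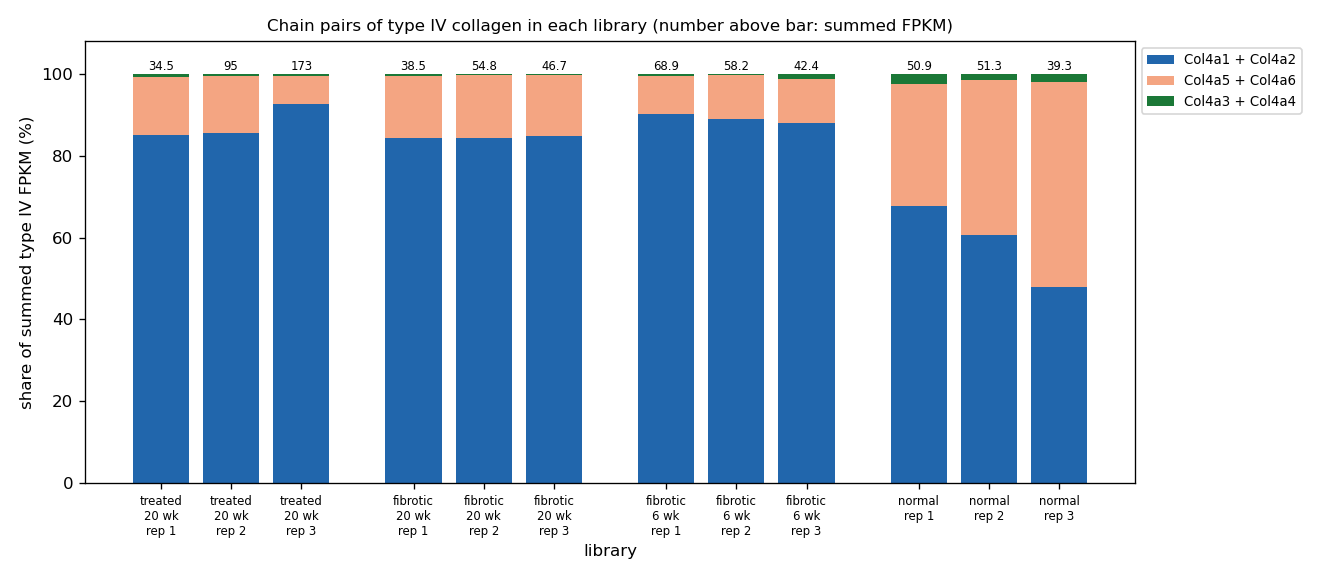
Share of each chain pair (colours) in the summed FPKM of the 6 type IV collagen genes, in percent, for each library, with the summed FPKM above each bar. Col4a5 and Col4a6 made up 29.8% to 50.1% in normal libraries and at most 15.3% in any fibrotic or treated one.

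Among the collagens that lie in the basement membrane zone, Col18a1, whose product carries heparan sulphate and the endostatin fragment, rose at both times. It stood at 20.3, 33.3 and 47.7 FPKM in treated replicates 1, 2 and 3, at 24.5, 28.8 and 27.5 in fibrotic skin at 20 weeks, at 33.4, 27.7 and 22.8 at 6 weeks, and at 16.3, 15.3 and 8.95 in normal skin. No fibrotic or treated library overlapped the normal ones. The log2 fold change against normal skin was 1.02 ± 0.29 (SE, adjusted p = 0.0203) at 6 weeks, 0.98 ± 0.29 (adjusted p = 0.0278) at 20 weeks and 1.22 ± 0.29 (adjusted p = 0.0192) in treated skin. These calls leaned on normal replicate 3, the lowest library, without which the adjusted p was 0.0709, 0.0973 and 0.0778 and the log2 fold change 0.77, 0.73 and 0.97. The treated call also ended with the 6 compared libraries alone (0.108). The call at 6 weeks also ended without 6-week replicate 1 or 2 (adjusted p = 0.0711 and 0.0578), and that at 20 weeks without any 1 of its fibrotic libraries (0.0572 to 0.0769). After rescaling to equal totals the log2 fold changes were 0.71 at 6 weeks and 0.68 at 20 weeks and did not pass (adjusted p = 0.106 and 0.125). Col15a1, the related chain found mainly around vessels, muscle and nerve, averaged 7.14 ± 0.855 FPKM in 20-week and 10.5 ± 2.45 FPKM in 6-week fibrotic skin, against 8.38 ± 3.36 in normal skin (SD, n = 3 each), and was not called (adjusted p = 0.856 and 0.597).

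The genes of the dermal-epidermal anchor differed from each other. Col17a1 fell in fibrotic skin: it stood at 188, 299 and 283 FPKM in treated replicates 1, 2 and 3, at 205, 233 and 156 in fibrotic skin at 20 weeks, at 176, 194 and 161 at 6 weeks, and at 382, 363 and 495 in normal skin. Every normal library was above all 9 others. The log2 fold change was -1.21 ± 0.21 (SE, adjusted p = 0.00208) at 6 weeks and -1.06 ± 0.21 (adjusted p = 0.00488) at 20 weeks. Both calls held under each alternative tried. In treated skin it was -0.70 ± 0.21 against normal (adjusted p = 0.0403), a call that ended with the replicate number as a block (0.0576), on scaling by the median of ratios (0.0678), without the filter (0.0567), with equal totals (0.0535), with the 6 compared libraries alone (0.13) and on leaving out any 1 of 9 libraries. These were normal replicates 1, 2 and 3, treated replicates 1 and 3, 20-week fibrotic replicate 1 and 6-week replicates 1, 2 and 3, and the adjusted p was 0.0503 to 0.147.

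Col7a1, the gene of the anchoring fibril, averaged 17.8 ± 4.45 FPKM in treated skin, 18.1 ± 4.89 at 20 weeks, 17.7 ± 1.31 at 6 weeks and 17.2 ± 1.19 in normal skin (SD, n = 3 each). Its log2 fold change against normal skin was 0.04 (95% interval -0.43 to 0.51) at 6 weeks, 0.03 (-0.44 to 0.51) at 20 weeks and 0.02 (-0.46 to 0.49) in treated skin. Of 7 hemidesmosome and anchoring partners, 5 fell at 6 weeks and 3 at 20 weeks, with none higher, or 71.4% and 42.9%, beside 39.3% and 33.5% of all tested genes. Dst, which encodes the hemidesmosome plaque protein that links collagen XVII to keratin filaments in its epidermal form, fell to 9.73 FPKM at 6 weeks, against 30.6 in normal skin, a log2 fold change of -1.55 (adjusted p = 0.0012). Of 5 basal keratinocyte markers, among them Itga6 and Itgb4 of the partner list, 2 rose and 2 fell at 6 weeks, and their summed FPKM was 7580 to 8885 at 6 weeks and 3432 to 3904 in normal skin. Most of that sum was Krt5 and Krt14, the 2 markers that rose. Krt14 alone ran from 4153 to 5281 FPKM at 6 weeks and from 872 to 1310 in normal skin. Trp63, Itgb4 and Itga6 were lower in every 6-week library than in every normal one.

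Of the other transmembrane collagens, Col23a1 fell and Col13a1 rose at 6 weeks. Col23a1 stood at 4.65, 12 and 7.24 FPKM in treated replicates 1, 2 and 3, at 2.59, 3.19 and 3.28 in fibrotic skin at 20 weeks, at 5.75, 4.60 and 3.76 at 6 weeks, and at 8.51, 9.65 and 10.6 in normal skin. The fibrotic libraries lay below both the normal and, at 20 weeks, the treated ones. Against normal skin its log2 fold change was -0.90 ± 0.25 (SE, adjusted p = 0.0192) at 6 weeks and -1.39 ± 0.25 (adjusted p = 0.00355) at 20 weeks. The 6-week call ended without 6-week replicate 2 or 3 or normal replicate 3 (adjusted p = 0.0562, 0.0631 and 0.0586), and the 20-week call held throughout. In treated skin it was -0.32 against normal (adjusted p = 0.388).

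Col13a1, whose product sits at cell adhesions and the neuromuscular junction, had 1.62, 1.04 and 2.02 FPKM at 6 weeks and 0.919, 0.34 and 0.335 FPKM in normal skin, and a log2 fold change against it of 0.75 with an SE of 0.21 (adjusted p = 0.0197). The gene passed the filter only through the 6-week libraries and treated replicate 3, so the filter built this difference in. The call at 6 weeks ended without 6-week replicate 1 or 3 or normal replicate 2 or 3 (adjusted p = 0.058 to 0.0678), and after rescaling to equal totals (0.0596). In the other groups it reached 1.0 FPKM in treated skin and 0.463 FPKM in fibrotic skin at 20 weeks at most. Col25a1, a transmembrane collagen of neurons, was under 0.43 FPKM everywhere. It stood at 0.427, 0.381 and 0.273 FPKM at 6 weeks and at no more than 0.112 FPKM in any of the other 9 libraries, and in the fit without the filter it rose at 6 weeks against normal skin (adjusted p = 0.000939).

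Of the beaded filament collagens, Col6a2, Col6a3 and Col28a1 rose at 6 weeks. Col6a3, the largest chain of collagen VI, stood at 8.98, 23.6 and 15.9 FPKM in treated replicates 1, 2 and 3, at 11.2, 18.2 and 7.65 in fibrotic skin at 20 weeks, at 34.7, 26.3 and 20.7 at 6 weeks, and at 8.47, 11 and 8.78 in normal skin. The 6-week libraries were above all normal and all 20-week fibrotic ones, with treated replicate 2 inside their range. The log2 fold change against normal skin was 1.42 ± 0.35 (SE, adjusted p = 0.0112) at 6 weeks and 0.29 (95% interval -0.49 to 1.08, adjusted p = 0.55) at 20 weeks. The 6-week call held under each alternative tried.

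Col6a2 averaged 36.7 ± 16.8 FPKM in treated skin, 24.1 ± 11.9 at 20 weeks, 30.7 ± 5.92 at 6 weeks and 13.2 ± 4.49 in normal skin (SD, n = 3 each). Its rise on the log2 scale was 1.19 ± 0.40 (SE, adjusted p = 0.0387) at 6 weeks and, in treated against normal skin, 1.35 ± 0.40 (adjusted p = 0.04). The 6-week call ended without any 1 of the 6-week libraries or without normal replicate 1 or 3 (adjusted p = 0.0659 to 0.127), without the filter (0.056) and after rescaling to equal totals (0.119). The treated call ended without any 1 of 8 libraries: 6-week replicates 1, 2 and 3, 20-week fibrotic replicate 1, treated replicates 2 and 3 and normal replicates 1 and 3 (adjusted p = 0.0526 to 0.148). It also ended without the filter (0.0592), with equal totals (0.0582) and with the 6 compared libraries alone (0.113). Col6a1, with 60.7, 44.4 and 49.0 FPKM at 6 weeks and 27.9, 35.3 and 20.0 in normal skin, did not overlap but missed the threshold (log2 fold change 0.89, adjusted p = 0.0709), and it passed in the fit of the 6 compared libraries alone and without 20-week fibrotic replicate 2 or treated replicate 1.

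The 3 chains of collagen VI join in equal numbers, and their ratios were set side by side. Col6a1 to Col6a3 was 3.0 to 3.31 in treated skin, 2.58 to 2.98 at 20 weeks, 1.69 to 2.37 at 6 weeks and 2.27 to 3.30 in normal skin. Col6a1 to Col6a2 was 1.29 to 1.51 in treated skin, 1.38 to 1.52 at 20 weeks, 1.64 to 1.75 at 6 weeks and 2.02 to 2.34 in normal skin, without overlap between normal and the other groups. Fibroblast markers had the same order as Col6a3 within both fibrotic groups: their summed FPKM was 310, 433 and 156 in replicates 1, 2 and 3 at 20 weeks and 853, 680 and 328 at 6 weeks. Col6a1, given above, and Col6a2, with 37.1, 25.4 and 29.5 FPKM at 6 weeks, were higher in replicate 3 than in replicate 2 there and so did not have that order. No fibroblast marker was called at 6 weeks, beside 39.3% of all tested genes. At 20 weeks 3 of 6 fell, beside 18.2% of all tested genes called lower. The part of these markers in the collagen VI values was not tested.

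Col28a1, a von Willebrand domain collagen related to type VI and known from peripheral nerve, rose at 6 weeks, with 4.23, 4.18 and 2.82 FPKM, against 1.11, 0.983 and 0.97 in normal skin. Its log2 fold change was 1.22 ± 0.31 (SE, adjusted p = 0.0117), and the call held under each alternative that tested it. In 20-week fibrotic skin it stood at 1.06, 2.41 and 3.06 FPKM, with replicate 1 inside the normal range, and was not called (adjusted p = 0.155). Beside it, 1 of 5 Schwann cell markers was called lower and none higher at 6 weeks. Of all tested genes, 21.7% were called lower there and 17.6% higher. The Schwann cell markers summed to 56.7 to 57.6 FPKM at 6 weeks and 80.7 to 133 FPKM in normal skin. Col6a4, Col6a5 and Col6a6, alternatives to the Col6a3 chain of collagen VI, stayed under 0.54 FPKM. Col6a4 had 0.312 to 0.319 FPKM in treated skin, 0.153 to 0.222 at 20 weeks, 0.252 to 0.353 at 6 weeks and 0.00963 to 0.0428 in normal skin. In the fit without the filter it rose against normal skin at 6 weeks (adjusted p = 0.000368), at 20 weeks (0.00259) and in treated skin (0.00112), while Col6a6 fell at 6 weeks (0.0477, with groups that overlap) and 20 weeks (0.00916) and Col6a5 at 20 weeks (0.0238). In treated against 20-week fibrotic skin that fit called Col6a4 (adjusted p = 0.0342) and Col6a5 (0.0405) higher, beside 7.97% of its genes.

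Among the FACITs, Col12a1 rose and Col20a1 fell in fibrotic skin, and Col14a1 and Col16a1 were not called. Col12a1, which encodes a fibril-surface collagen of dense connective tissue, stood at 6.02, 10.9 and 6.23 FPKM in treated replicates 1, 2 and 3, at 16.3, 20.7 and 14.4 in fibrotic skin at 20 weeks, at 22.3, 19.1 and 16 at 6 weeks, and at 3.31, 5.33 and 3.82 in normal skin. Treated libraries lay between the 2 other conditions, above all normal and below all fibrotic libraries. The log2 fold change against normal skin was 1.97 ± 0.23 (SE, adjusted p = 0.000351) at 6 weeks and 1.82 ± 0.23 (adjusted p = 0.000781) at 20 weeks, and both calls held under each alternative tried.

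Treated skin differed from both. Col12a1 fell there against fibrotic skin of 20 weeks by 1.09 ± 0.23 on the log2 scale (SE, adjusted p = 0.0197), and rose against normal skin by 0.73 ± 0.23 (adjusted p = 0.0484). The fall ended without any 1 of the 20-week fibrotic libraries or without treated replicate 3 (adjusted p = 0.0534 to 0.0711) and in the fit of the 6 compared libraries alone (0.128), at nearly the same size (-0.95 to -1.20 when any of these libraries was left out). The rise against normal skin ended on leaving out any 1 of 10 libraries (adjusted p = 0.0538 to 0.142), the exceptions being treated replicate 1 and normal replicate 2. It also ended in the fits of the 6 compared libraries alone (0.143), with no filter (0.0701), with equal totals (0.0645) and with no intensity trend (0.0504).

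Col14a1, the FACIT most like Col12a1 in structure, averaged 5.26 ± 0.32 FPKM in treated skin, 5.43 ± 3.47 at 20 weeks, 5.97 ± 2.09 at 6 weeks and 5.63 ± 0.981 in normal skin (SD, n = 3 each). The ratio of Col12a1 to Col14a1 was 1.11 to 2.12 in treated skin, 2.44 to 8.59 at 20 weeks, 2.68 to 3.68 at 6 weeks and 0.69 to 0.80 in normal skin. Col16a1, a FACIT of dermal and epidermal junction matrix, averaged 10.9 ± 2.58 FPKM at 20 weeks and 10.8 ± 1.02 at 6 weeks, against 12.6 ± 1.54 in normal skin, and was not called (adjusted p = 0.58 and 0.583). Col20a1 fell at 20 weeks, to 0.594 ± 0.122 FPKM, against 1.38 ± 0.087 in normal skin (log2 fold change -0.58 ± 0.15, SE, adjusted p = 0.0148), a call that ended without 20-week fibrotic replicate 1 (0.0549). Col20a1 passed the filter only through the normal libraries and treated replicates 2 and 3, so the filter built this difference in. Col19a1 and Col22a1 stayed under 0.23 FPKM, and the collagen IX genes Col9a1 and Col9a2 under 0.68 FPKM.

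The 2 chains of collagen VIII, a short-chain collagen of hexagonal networks, were called in opposite directions against normal skin at 20 weeks. At 6 weeks only Col8a2 was called. Col8a2 stood at 0.975, 3.45 and 4.65 FPKM in treated replicates 1, 2 and 3, at 0.942, 0.849 and 0.334 in fibrotic skin at 20 weeks, at 0.675, 0.335 and 0.229 at 6 weeks, and at 9.12, 7.52 and 8.96 in normal skin. Every fibrotic library was below 1 FPKM and every normal one above 7 FPKM. Its log2 fold change was -2.76 ± 0.33 (SE, adjusted p = 0.000389) at 6 weeks and -2.50 ± 0.33 (adjusted p = 0.000918) at 20 weeks. The gene passed the filter only through the normal libraries and treated replicates 2 and 3, so the filter built this difference in. As ratios of mean FPKM these were 0.0484 and 0.083. Both calls held under each alternative that tested the gene, the fit without the filter among them.

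Treated skin lay between, with a log2 fold change of Col8a2 of -1.37 ± 0.33 against normal skin (SE, adjusted p = 0.0196) and of 1.13 ± 0.33 against fibrotic skin of 20 weeks (adjusted p = 0.0456). Treated replicate 1, at 0.975 FPKM, was just above the highest fibrotic library of 20 weeks. No fibrotic library counted towards passing the filter, which the normal libraries alone were enough to meet. The rise against fibrotic skin is a borderline call. It ended in each fit that left out 1 library other than treated replicate 1 (adjusted p = 0.0601 to 0.164), with the replicate block (0.0793), a pseudocount of 0.1 (0.0519), no filter (0.071) and the 6 compared libraries alone (0.17). Without treated replicate 1 it was 1.57 (adjusted p = 0.000632). The fall against normal skin ended without normal replicate 1 or 3 (adjusted p = 0.0508 and 0.0733), with a pseudocount of 0.1 (0.0515) and with the 6 compared libraries alone (0.105). Sebocyte markers moved with Col8a2: 4 of 4 were called lower at 6 weeks and 3 of 4 at 20 weeks against normal skin, and 3 of 4 higher in treated against 20-week fibrotic skin. Their summed FPKM was 18.7, 145 and 159 in treated replicates 1, 2 and 3, 6.94 to 16.6 at 20 weeks, 9.07 to 19.4 at 6 weeks and 64.7 to 156 in normal skin. Follicle stem cell and outer root sheath markers, with the sums given beside the type IV chains, were called higher in treated against 20-week fibrotic skin for 4 of 6, and stood at 339, 1073 and 1217 FPKM in treated replicates 1, 2 and 3, the order of Col8a2. Of all tested genes, 21.7% were called lower at 6 weeks, 18.2% lower at 20 weeks and 4.45% higher in treated against 20-week fibrotic skin. The part of either list in the result was not tested.

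Col8a1 rose at 20 weeks, to 4.21, 4.62 and 3.91 FPKM, against 1.53, 1.76 and 1.61 in normal skin, a rise of 0.99 with an SE of 0.32 on the log2 scale (adjusted p = 0.0353). The 6-week libraries stood at 4.02, 2.84 and 2.55 FPKM, above all normal libraries, and the gene was not called there (adjusted p = 0.132). In treated replicates 1, 2 and 3 Col8a1 stood at 0.83, 4.52 and 2.30 FPKM, with replicate 1 below every normal library. The 20-week call ended without any 1 of the 6 compared libraries (adjusted p = 0.0669 to 0.0925), with no filter (0.0528) and with equal totals (0.0918), at a log2 fold change of 0.77 to 1.04. The ratio of Col8a1 to Col8a2 was 0.493 to 1.31 in treated skin, 4.47 to 11.7 at 20 weeks, 5.96 to 11.1 at 6 weeks and 0.168 to 0.235 in normal skin, so that no treated library overlapped either group. Col10a1, the short-chain collagen of growth cartilage, stayed under 0.12 FPKM.

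**Figure D3:**
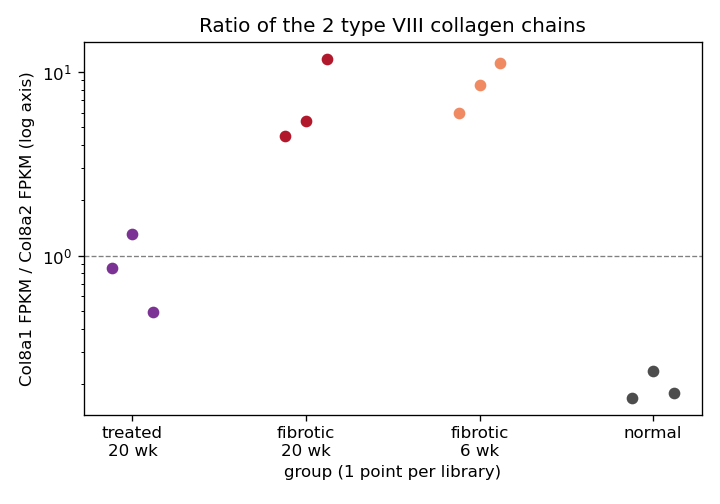
Ratio of Col8a1 to Col8a2 FPKM in each library on a log axis, by group, with a dashed line at equal values. The ratio was 0.493 to 1.31 in treated skin, at least 4.47 in fibrotic skin and at most 0.235 in normal skin.

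The fibrillar chains kept by the rule were low. Col27a1, a short fibrillar chain of cartilage and other tissues, averaged 1.79 ± 0.692 FPKM in treated skin, 0.886 ± 0.226 at 20 weeks, 1.57 ± 0.249 at 6 weeks and 1.73 ± 0.537 in normal skin (SD, n = 3 each). It was lower in every 20-week library than in every normal one but was not called (adjusted p = 0.0796); it passed in the fits without treated replicate 1 or normal replicate 2 and after rescaling to equal totals. Col2a1, Col11a2 and Col24a1 stayed under 0.90 FPKM. Col2a1, the cartilage collagen gene, had 0.177 to 0.42 FPKM in treated skin, 0.172 to 0.461 at 20 weeks, 0.227 to 0.417 at 6 weeks and 0.0313 to 0.0799 in normal skin. Of the 16 members that were not tested, the fit without the filter called 5 higher and 3 lower at 6 weeks, beside 28.8% of its genes called, and 2 higher and 4 lower at 20 weeks, beside 23.5%. It called 2 higher in treated against normal skin (Col6a4 and Col11a2), beside 13%, and none between 20 and 6 weeks, beside 0.0249%. Of 6 tested main fibrillar chains, which the rule leaves out, 5 rose and 0 fell at 6 weeks, and 2 rose at 20 weeks, or 83.3% and 33.3% beside 39.3% and 33.5% of all tested genes, with log2 fold changes of 0.19 to 2.11 at 6 weeks.

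**Figure D4:**
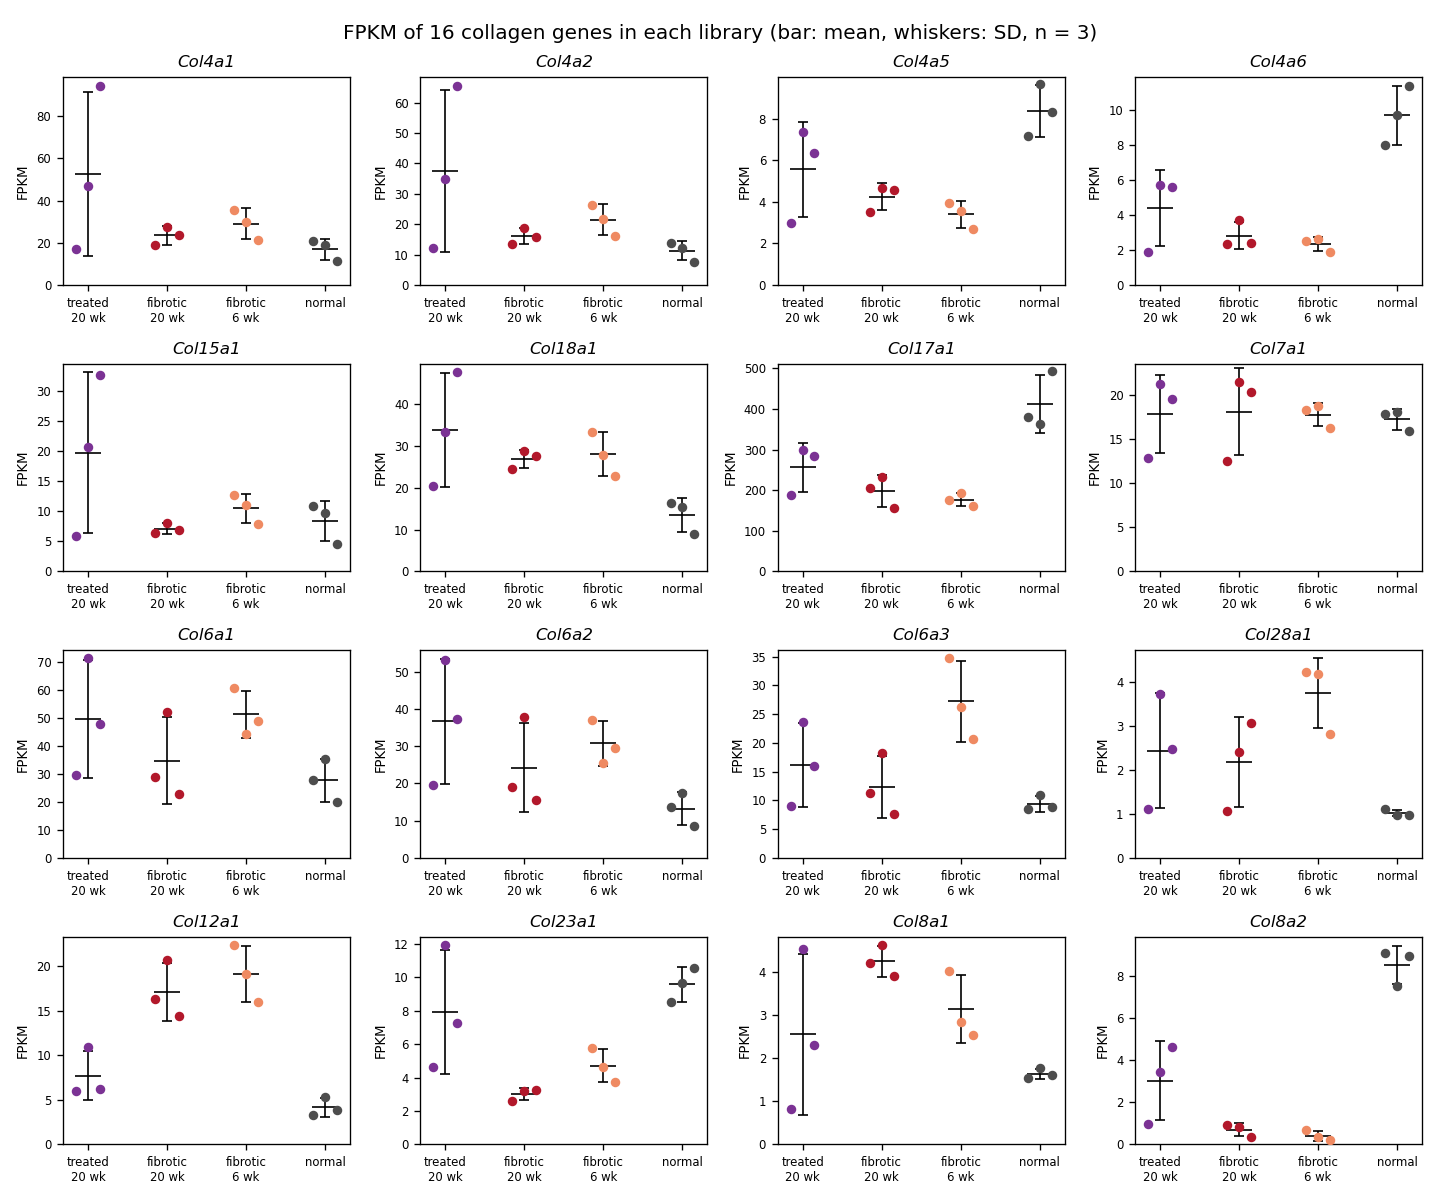
FPKM of 16 members in each library (points), with the group mean (bar) and SD (whiskers, n = 3), for treated, 20-week fibrotic, 6-week fibrotic and normal skin from left to right. Col17a1, Col4a6 and Col8a2 were highest in every normal library, and Col12a1 was highest in the fibrotic ones.

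Late against early fibrotic skin asked whether these genes changed between 6 and 20 weeks. No member was called by limma, while 0.0363% of all tested genes were (0.00727% higher and 0.0291% lower), and 2 members had an unadjusted p under 0.05. For 5 of the 21 members the groups did not overlap, all lower at 20 weeks, beside 30.9% of all tested genes: Col6a3, Col13a1, Col20a1, Col23a1 and Col27a1. Col6a3 had the lowest log2 fold change, -1.13 (95% interval -1.91 to -0.34, adjusted p = 0.14). Col13a1, at -0.82 (adjusted p = 0.103), passed in the fit of the 6 compared libraries alone and without treated replicate 1. It met the filter on low values only through the 6-week libraries and treated replicate 3, so the filter built this difference in.

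Treated against untreated fibrotic skin of 20 weeks asked how skin that received the fibroblasts differed. Col23a1 rose by 1.07 ± 0.25 (SE, adjusted p = 0.0244) and Col8a2 rose and Col12a1 fell as given above, and for these 3 members the groups did not overlap, as for 32.2% of all tested genes. In each, treated means lay nearer to normal skin than the fibrotic means did. These 3 members were picked by their difference between treated and fibrotic skin. Col8a2 also met the filter only through the normal libraries and treated replicates 2 and 3, with no fibrotic library among them. The normal libraries alone were enough, so the filter did not fix its rise over fibrotic skin. The Col23a1 call ended without any 1 of the 20-week fibrotic libraries or without treated replicate 2 or 3 (adjusted p = 0.0546 to 0.081) and with the 6 compared libraries alone (0.133).

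Treated replicate 1 decided much of this comparison. Without it, 12 of the 21 members were called, 11 higher and 1 lower, beside 37.9% of all tested genes, where with it 3 were. The members then higher included Col15a1 (log2 fold change 1.74, adjusted p = 0.00343), Col4a1 (1.48, 0.00922), Col4a2 (1.53, 0.00504), Col16a1 (1.03, 0.00498), Col4a6 (0.83, 0.00793), Col4a5 (0.59, 0.0223) and Col17a1 (0.57, 0.0363). With all 3 libraries none of these passed: Col15a1, with 5.93, 20.7 and 32.7 FPKM in treated replicates 1, 2 and 3 and 6.47, 8.10 and 6.85 in fibrotic skin, had 1.08 (adjusted p = 0.151). Against normal skin, 12 members were called without treated replicate 1, 10 higher and 2 lower, beside 22.5% of all tested genes, and 6 with it. The lone pair of treated libraries is then assumed to vary like the other groups.

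The treated libraries that were high in these collagens were high in markers of other tissues. In replicates 1, 2 and 3, blood endothelium markers summed to 54.9, 149 and 196 FPKM and adipocyte markers to 143, 373 and 834 FPKM, against 71.7 to 105 and 89.1 to 150 FPKM in fibrotic skin of 20 weeks. Endothelial cells and adipocytes both make the type IV and XV chains. Pericyte and smooth muscle markers summed to 63.8, 269 and 358 FPKM, and follicle stem cell and outer root sheath markers to 339, 1073 and 1217 FPKM. Each of these lists was lowest in the treated library with the lowest Col4a1 and highest in that with the highest. Skeletal muscle markers, at 70.6, 1115 and 2075 FPKM, and sebocyte and melanocyte markers had this order too. Basal keratinocyte, hair matrix and shaft, dermal papilla, fibroblast, Schwann cell, cartilage and macrophage markers did not. The part of any list in the collagen values was not tested. Col12a1 did not follow the order of Col4a1, with 6.02, 10.9 and 6.23 FPKM. Of the members named above as higher without treated replicate 1, Col4a2, Col15a1 and Col16a1 had that order. Col4a5, Col4a6 and Col17a1 did not and were highest in treated replicate 2.

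**Figure D5:**
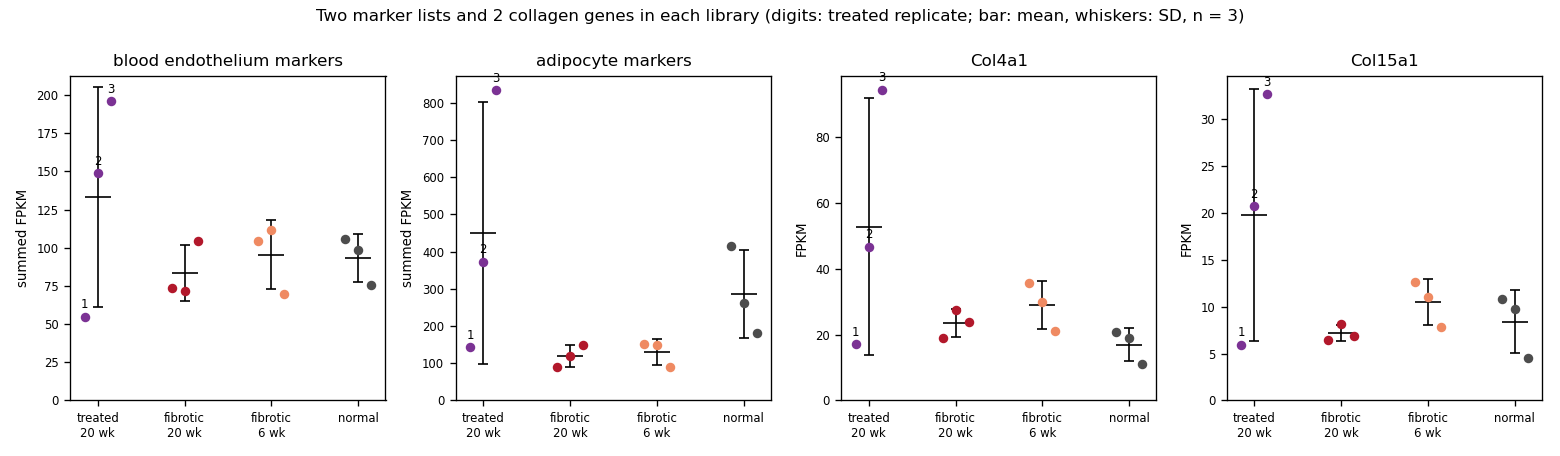
Summed FPKM of 6 blood endothelium and 5 adipocyte markers and FPKM of Col4a1 and Col15a1 in each library (points; digits give the treated replicate), with the group mean (bar) and SD (whiskers, n = 3). In treated skin all 4 quantities were lowest in replicate 1 and highest in replicate 3.

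Genes that work with these collagens were counted from lists of known partners. Of 21 tested basement membrane partners (laminins, nidogens, perlecan and others), 2 rose and 7 fell at 6 weeks and 1 rose and 6 fell at 20 weeks. Against fibrotic skin of 20 weeks, treated skin had 3 higher and none lower. These were 42.9%, 33.3% and 14.3% of the list, beside 39.3%, 33.5% and 15.3% of all tested genes, shares near the background. Their median log2 fold change was -0.23 at 6 weeks, -0.45 at 20 weeks and 0.66 in treated against fibrotic skin, where the medians of all tested genes were -0.05, -0.04 and 0.00. Egfl6, a basement membrane protein of the follicle bulge in mouse, averaged 0.542 FPKM at 6 weeks and 5.39 FPKM in normal skin, a log2 fold change of -2.04 (adjusted p = 0.00144). Smoc2, a matricellular protein of basement membranes, fell by 1.42 at 6 weeks (adjusted p = 0.0034), and Fras1, part of the complex that joins embryonic epidermis to dermis, rose by 1.13 (adjusted p = 0.0017).

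Of 17 tested microfibril, FACIT-binding and receptor partners, 1 rose and 4 fell at both 6 and 20 weeks against normal skin, or 29.4% of the list at each time, below the 39.3% and 33.5% of all tested genes. Bgn, the gene of biglycan, a proteoglycan that binds collagen VI, rose to 124 FPKM at 6 weeks, against 34.5 in normal skin (log2 fold change 1.78, adjusted p = 0.00436). Tnxb, which encodes tenascin-X, a partner of collagens XII and XIV, fell by 1.77 (adjusted p = 0.00556), and Itga2, a collagen receptor subunit, by 1.02 (adjusted p = 0.00038).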

How the data were processed

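Poly-A RNA of 12 skin samples in 4 groups of 3 was sequenced in paired-end runs of 101 cycles from stranded libraries, per the labels' protocols. The submitters' processing notes name mm10, Bowtie2 2.2.3, TopHat2 2.0.13, SAMtools 1.0, cutadapt 1.7.1 and Cufflinks 2.2.1. The annotation is not given in the sources used here, nor is what each tool did or whether strand was used. The deposited values, in 1 table of 23359 genes, are FPKM as the table is named: numbers of fragments divided by transcript length and library size. Depth cannot be read from FPKM, so no counting error is given; the number of libraries limits the precision. Members were the 37 symbols of the form Col, number, a, number, without the 7 fibrillar chains Col1a1, Col1a2, Col3a1, Col5a1, Col5a2, Col5a3 and Col11a1. Members, partner and marker lists were chosen with earlier results of these data known.

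The scale of analysis was log2(FPKM + 1). A gene needed 1 FPKM or more in 3 or more libraries, which left 13761 genes, and these were fitted in limma 3.58.1 under R 4.3.3, with a mean per group over all 12 libraries and an intensity trend. Tests were 2-sided, with Benjamini-Hochberg adjustment over all tested genes of a comparison and calls at an adjusted p under 0.05. The procedure was tested on simulated data. With 3 libraries against 3, exact permutation p-values start at 0.10 and are not given. Same-numbered libraries of 6-week fibrotic and normal skin deviated together from their group means in all 3 numbers, with correlations of 0.11, 0.16 and 0.23 across genes; the other group combinations had at least 1 number under 0.1. Even so, 6-week replicate 3 correlated best with normal replicate 1. No pairing is labelled, and the main fit treated the libraries as unpaired. The fit with the replicate number as a block was run as an alternative. All members tested are described by collagen type, and up to 3 partner genes per list are named by the smallest adjusted p among called genes that changed at least 2-fold without overlap. Other alternatives were a pseudocount of 0.1, other filters, other scalings, the 6 compared libraries alone, no intensity trend, a 2-fold threshold and each library left out. Promoter sequences and gene positions come from RefSeq's GRCm38.p6 tables, where all 37 members matched a position and 30 a promoter entry.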

Additional observations from a re-analysis of the deposited data

How the results depend on the processing

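Each of the 29 member calls kept its direction under the alternatives that tested it, and 12 stayed past the threshold throughout: 7 of 11 at 6 weeks and 5 of 9 at 20 weeks against normal skin, and none of the treated calls. The count of members called was 11 at 6 weeks, 19 with no filter on low values and 7 with a filter at a mean of 5 FPKM, which tests fewer members, and 7 to 15 with any 1 library left out. At 20 weeks it was 9, with 14 under no filter, 5 under the filter at 5 FPKM, 5 when a 2-fold change was also required, and 5 to 10 with any 1 library left out. Between 20 and 6 weeks it was 0, with 1 in the fit of the 6 compared libraries alone and 0 to 1 with any 1 library left out. In treated against fibrotic skin it was 3, with 0 in the 6 compared libraries alone and 0 to 12 with any 1 library left out: 0 without treated replicate 3 or any 1 of the 20-week fibrotic replicates, and 12 without treated replicate 1. In treated against normal skin it was 6, with 3 under equal totals, 0 in the 6 compared libraries alone and 0 to 12 with any 1 library left out: 0 without normal replicate 3 and 12 without treated replicate 1. With the replicate number as a block the counts were 11 at 6 weeks, 9 at 20 weeks, 0 between the times, 2 in treated against fibrotic and 5 in treated against normal skin. Of 18 same-numbered pairs of libraries 5 correlated over 0.1 and 5 correlated best with their own number. The calls that the block ended were those of Col8a2 against fibrotic and Col17a1 against normal skin. For the other alternatives that ended a call, the cause was not tested. Genes near 1 FPKM are limited by the pseudocount, which shrinks their fold changes.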

Other observations

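Among the genes of collagen IX, a FACIT of cartilage, 2 libraries stood above the rest, a pattern chosen after the values were seen. Col9a3 had 1.82 FPKM in treated replicate 3 and 1.47 FPKM in 20-week fibrotic replicate 1, and no more than 0.687 FPKM in any other library. Col9a2 was highest in the same libraries, with 0.67 and 0.422 FPKM. Col9a1 reached 0.142 FPKM in treated replicate 3 and 0.022 FPKM in 20-week fibrotic replicate 1. The summed FPKM of the cartilage markers was 1.45 in treated replicate 3 and 0.451 in 20-week fibrotic replicate 1. Col26a1, whose product is expressed in the gonads, had 0.104 to 0.322 FPKM in 6-week fibrotic skin and 0.0346 to 0.0441 FPKM in normal skin.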
